A study of Mirounga angustirostris with 8 samples.

Results

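The glycogen-targeting subunits of protein phosphatase 1 (PP1) are encoded by the PPP1R3 genes, and 7 of them, PPP1R3A to PPP1R3G, were present among the 24338 named genes of the count table from northern elephant seal muscle. The family was chosen from measured values of these same libraries, because PPP1R3C and PPP1R3G moved in opposite directions between the groups. The fold changes of the members are therefore given as a description and carry no test. All 7 passed the filter on low counts that left 14312 genes for testing, and the lowest count of any member in any library was 53.

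PP1 is a serine and threonine phosphatase whose catalytic subunit finds its substrates through regulatory subunits. Each PPP1R3 protein binds both PP1 and glycogen, and so brings the phosphatase to the glycogen particle. There PP1 removes phosphate from glycogen synthase, which activates it, and from glycogen phosphorylase and phosphorylase kinase, which turns glycogen breakdown down. In skeletal muscle the family sits between insulin, adrenaline and contraction signals and the size of the glycogen store.

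Poly-A RNA from longissimus dorsi, a long muscle of the back, was sequenced from adult female northern elephant seals (NES, Mirounga angustirostris) with no experimental treatment. The post-molt group held 4 libraries (seals 4448, 5572, 9678 and X410), biopsied on average 34 days later, close to their return to sea. The pre-molt group held 4 libraries (seals 5572, 5842, 6762 and C497), biopsied no later than 5 days after the seals came ashore, where they fast and move little. Only seal 5572 was in both groups, so the 8 libraries came from 7 animals, and the study kept, for each condition, the 4 libraries richest in unique reads.

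Post-molt libraries held 30769570 to 61216192 counts and pre-molt libraries 37897904 to 56137977. Genes with at least 1 count numbered 12676 to 18044 in post-molt libraries, fewest in 9678, and 14165 to 16817 in pre-molt libraries. In the paper's mapping summary, post-molt 9678 also had the lowest share of uniquely mapped reads. The paper chose these libraries because RNA of low quality gave poor sequencing in some samples. The part of RNA quality in the values of 9678 was not tested. The muscle markers ACTA1, CKM, MB, TTN and DES were abundant, with a summed level of 160000 to 230000 CPM (counts per 1000000 counts of the library, its size scaled by a TMM factor) in post-molt libraries and 169000 to 276000 CPM in pre-molt libraries. ACTA1 (skeletal actin) did not overlap between groups, with 45200 ± 9790 CPM post-molt and 86000 ± 22300 CPM pre-molt (SD, n = 4 each), and TTN (titin) varied widely within both, at 1630 to 25280 CPM post-molt and 1152 to 28800 CPM pre-molt; neither passed the test. The symbols of the myosin heavy chain genes MYH1, MYH2, MYH4 and MYH7 were not among the named genes of the count table. Markers of fast fibers (5 tested) summed to 442 to 1810 CPM in post-molt libraries, and to 15740 and 8871 CPM in pre-molt 5842 and C497 but 367 to 670 CPM in the other pre-molt libraries. Slow-fiber markers (6 tested) summed to 47400 to 69100 CPM post-molt and 40300 to 83200 CPM pre-molt, with 2 positive and 4 negative log2 fold changes. Of these, ATP2A2 alone passed the test, with 6780 ± 1140 CPM post-molt and 3180 ± 150 CPM pre-molt (edgeR adjusted p = 0.0419). Over all tested genes, 0.217% were called higher. Fibroblast markers summed to 180 to 458 CPM in post-molt libraries and 428 to 1410 CPM in pre-molt libraries, and all 8 had a negative log2 fold change, none past the test. Adipocyte markers summed to 237 to 484 CPM in post-molt libraries and 275 to 406 CPM in pre-molt libraries, with LEP at or near 0. PLIN4 was the largest part of that sum in every library, and 5 of 7 tested adipocyte markers had a negative log2 fold change, CIDEC with 5.38 ± 3.02 CPM post-molt and 26.3 ± 13.4 CPM pre-molt and no overlap; none passed the test. Keratinocyte markers reached no more than 2.19 CPM in any post-molt library and stood at 0 in all pre-molt libraries. KRT14 and KRT1 were not among the named genes and KRT10 had no count, so that this sum is that of KRT5. The part of these cell types in the values of the PPP1R3 genes was not tested, and in such bulk tissue fewer cells of a type and less RNA per cell cannot be told apart.

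PPP1R3C had the largest fold change of the family. It encodes PTG, "protein targeting to glycogen", a broadly expressed subunit that also binds glycogen synthase and phosphorylase. PPP1R3C had 199, 102, 158 and 154 CPM in post-molt seals 4448, 5572, 9678 and X410, against 6.33, 17.3, 15.1 and 27.1 CPM in pre-molt seals 5572, 5842, 6762 and C497. The lowest post-molt library was well above the highest pre-molt library. In raw counts this was 13881, 3674, 4889 and 7750 counts in post-molt libraries and 266, 552, 819 and 1612 counts in pre-molt libraries. Mean PPP1R3C was 153 ± 39.7 CPM post-molt and 16.5 ± 8.52 CPM pre-molt (SD, n = 4 each), a log2 fold change of 3.22 ± 0.38 (SE), or 9.29-fold with 7.13-fold to 12.1-fold at 1 SE on either side. Of the 14312 tested genes, 26 had a larger positive fold change. Nothing is read from this rank, since the family was picked on this contrast. In seal 5572, which gave a library to both groups, PPP1R3C differed by 4.01 on the log2 scale, the widest gap that the member showed under any setting tried.

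PPP1R3G moved the other way. It encodes a glycogen-targeting subunit studied mainly in mouse liver, where it promotes glycogen synthesis. PPP1R3G had 5.52, 6.44, 1.71 and 3.55 CPM in post-molt seals 4448, 5572, 9678 and X410, against 25.9, 25.0, 18.5 and 14.0 CPM in pre-molt seals 5572, 5842, 6762 and C497. The groups did not overlap, and the highest post-molt library was below the lowest pre-molt one. The counts behind these levels were 385, 232, 53 and 179 in post-molt libraries and 1088, 797, 1003 and 832 in pre-molt libraries. Mean PPP1R3G was 4.30 ± 2.11 CPM post-molt and 20.8 ± 5.63 CPM pre-molt (SD, n = 4 each), a log2 fold change of -2.27 ± 0.40 (SE), so that post-molt libraries held 0.207 of the pre-molt level. Among tested genes, 196 had a more negative fold change, a rank that likewise comes from the contrast on which the family was picked. The difference within seal 5572 was -2.01 on the log2 scale.

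**Figure D1:**
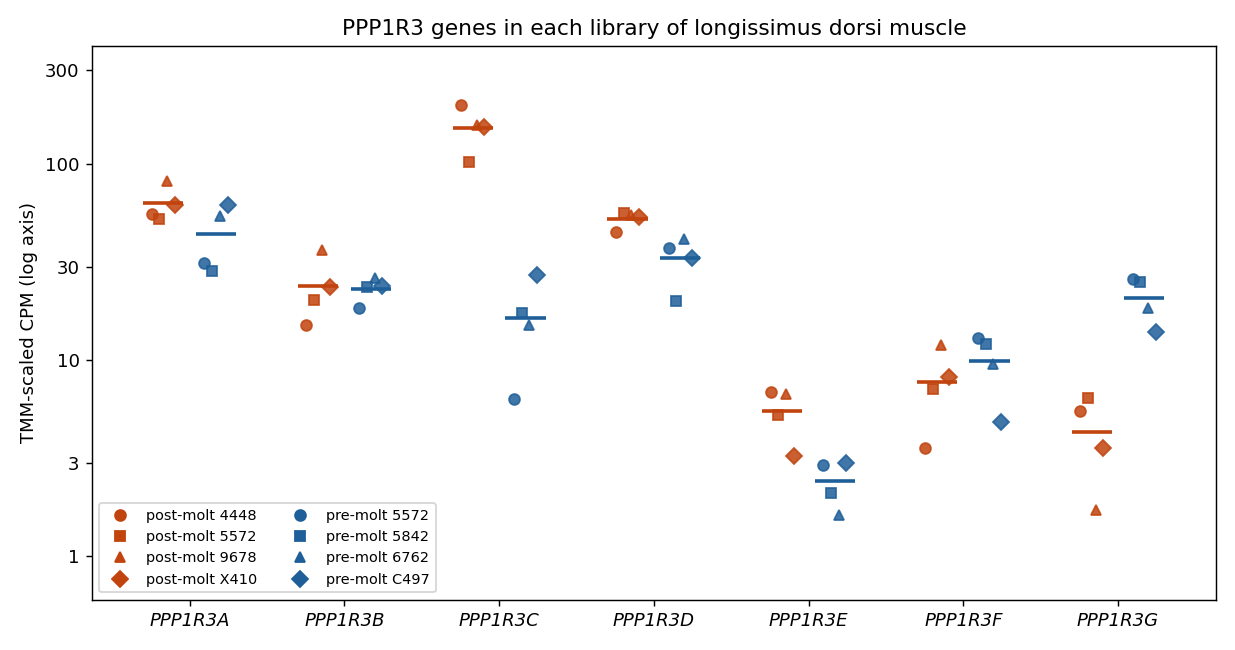
TMM-scaled CPM (log axis) of the 7 PPP1R3 genes in each library, with 4 post-molt libraries (orange) left of 4 pre-molt libraries (blue) for every gene; lines are group means and symbols are seals. Post-molt PPP1R3C lies at 102 to 199 CPM with pre-molt at 6.33 to 27.1 CPM, and post-molt PPP1R3G lies at 1.71 to 6.44 CPM with pre-molt at 14.0 to 25.9 CPM.

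The striated-muscle subunit of the family had a smaller fold change. PPP1R3A encodes GM, which holds PP1 at the glycogen particles and sarcoplasmic reticulum of muscle fibers. PPP1R3A had 55.9, 52.6, 82.0 and 62.1 CPM in post-molt seals 4448, 5572, 9678 and X410, against 31.3, 28.5, 54.5 and 61.6 CPM in pre-molt seals 5572, 5842, 6762 and C497. Both groups overlapped, since pre-molt 6762 and C497 lay within the post-molt range. Mean PPP1R3A was 63.1 ± 13.2 CPM post-molt and 44.0 ± 16.6 CPM pre-molt (SD, n = 4 each), a log2 fold change of 0.52 ± 0.27 (SE). Seal 5572 alone differed by 0.75.

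PPP1R3B encodes GL, the subunit best known from liver and also found in skeletal muscle of humans. It had 15.1, 20.2, 36.5 and 23.6 CPM in post-molt seals 4448, 5572, 9678 and X410, against 18.3, 23.7, 26.1 and 24.0 CPM in pre-molt seals 5572, 5842, 6762 and C497. All 4 pre-molt libraries fell inside the post-molt range. Mean PPP1R3B was 23.9 ± 9.13 CPM post-molt and 23.0 ± 3.30 CPM pre-molt (SD, n = 4 each), a log2 fold change of 0.05 ± 0.27 (SE). The sign of this value depended on single libraries, as it ran from -0.23 to 0.22 when each library was left out in turn.

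PPP1R3D, a subunit expressed in many tissues, had 44.9, 56.4, 55.2 and 53.6 CPM in post-molt seals 4448, 5572, 9678 and X410, against 37.4, 20.01, 41.3 and 33.1 CPM in pre-molt seals 5572, 5842, 6762 and C497. The groups were close together but did not overlap. Its means were 52.5 ± 5.21 CPM post-molt and 33.0 ± 9.26 CPM pre-molt (SD, n = 4 each), a log2 fold change of 0.67 ± 0.23 (SE), or 1.59-fold. Without pre-molt 5842 and C497, the pair with the highest fast-fiber markers, the value was 0.44, in a setting added after seeing the data. Without pre-molt 5842 alone it was 0.52, and without pre-molt C497 alone 0.68.

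PPP1R3E, which binds PP1 and glycogen like the other members, had 6.85, 5.28, 6.71 and 3.23 CPM in post-molt seals 4448, 5572, 9678 and X410, against 2.90, 2.10, 1.63 and 2.99 CPM in pre-molt seals 5572, 5842, 6762 and C497. The groups did not overlap, although post-molt X410 was only just above the highest pre-molt library. These levels rest on 163 to 478 counts in post-molt libraries and 67 to 178 counts in pre-molt libraries. PPP1R3E averaged 5.52 ± 1.68 CPM post-molt and 2.40 ± 0.655 CPM pre-molt (SD, n = 4 each), a log2 fold change of 1.20 ± 0.47 (SE), or 2.29-fold.

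PPP1R3F encodes a membrane-anchored member that has been described in brain cells. It had 3.54, 7.14, 12.0 and 8.21 CPM in post-molt seals 4448, 5572, 9678 and X410, against 12.9, 12.1, 9.57 and 4.84 CPM in pre-molt seals 5572, 5842, 6762 and C497. The groups overlapped widely. Mean PPP1R3F was 7.72 ± 3.48 CPM post-molt and 9.85 ± 3.63 CPM pre-molt (SD, n = 4 each), a log2 fold change of -0.35 ± 0.42 (SE). Pre-molt C497 was the lowest of its group for PPP1R3F as it was for PPP1R3G, while it was the highest for PPP1R3A and PPP1R3C.

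Across the family, 5 members had a positive and 2 a negative log2 fold change, with a median of 0.52, against a median of -0.04 over all 14312 genes tested. By edgeR's quasi-likelihood test with Benjamini-Hochberg adjustment over all genes, 1 member (PPP1R3C) was called higher, where 0.217% of all tested genes were, and 1 member (PPP1R3G) lower, where 0.133% were. Nothing is read from these calls, because the family was picked on the same contrast. Groups did not overlap for 4 of 7 members (PPP1R3C, PPP1R3D, PPP1R3E and PPP1R3G), where 9.16% of tested genes had no overlap. The family was picked for the moves of PPP1R3C and PPP1R3G, so nothing is read from this count or from the family median either. The call of PPP1R3G was lost when any 1 library other than post-molt 9678 or pre-molt C497 was left out, and both calls were lost without pre-molt 5842 and post-molt 9678, at a log2 fold change of 3.25 for PPP1R3C and -1.89 for PPP1R3G. Without pre-molt 5842 and C497, which had the highest fast-fiber markers, the values were 3.85 for PPP1R3C and -2.34 for PPP1R3G, and PPP1R3G was again not called.

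**Figure D2:**
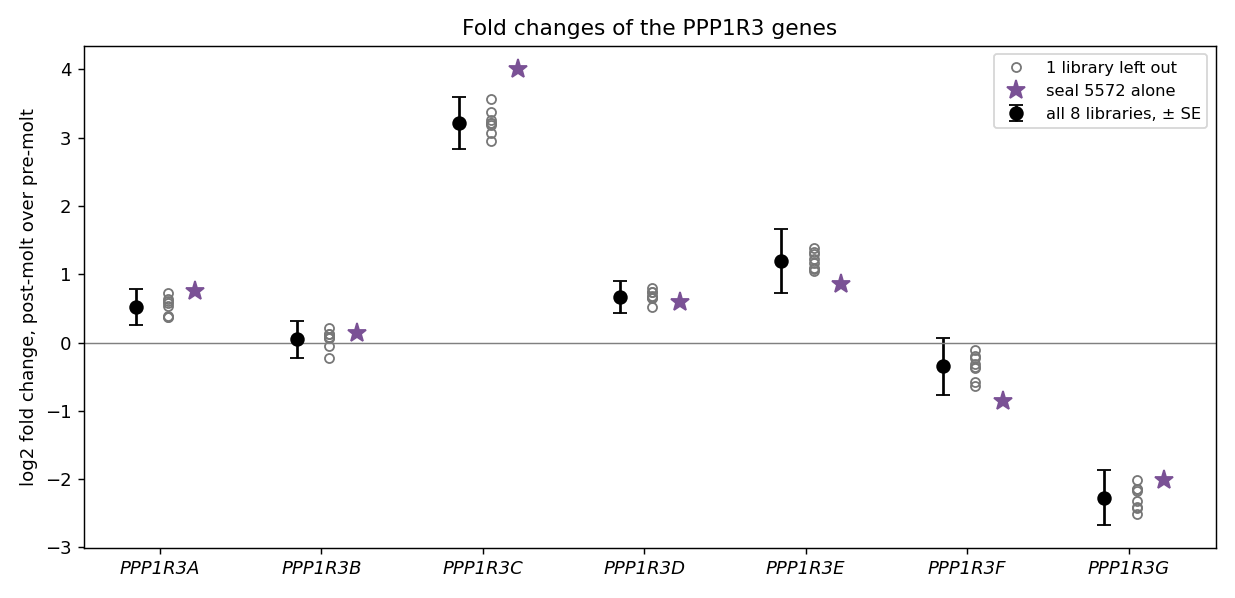
Log2 fold change of each PPP1R3 gene, post-molt over pre-molt, from all 8 libraries (black points, bars are 1 SE), with each library left out in turn (open circles) and within seal 5572 alone (stars). PPP1R3C stays between 2.95 and 4.01 and PPP1R3G between -2.51 and -2.01, while PPP1R3B lies on both sides of 0.

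Members also differed in how much they varied among libraries of 1 group. The within-group SD of log2 CPM was 0.69 for PPP1R3F, 0.68 for PPP1R3C and 0.67 for PPP1R3G, and 0.34 to 0.46 for the other members, against a median of 0.52 over all genes tested. For PPP1R3C the spread was wider in the pre-molt group, with a highest-to-lowest ratio of 1.95 post-molt and 4.28 pre-molt. PPP1R3G had the reverse, with ratios of 3.77 post-molt and 1.85 pre-molt, and 9678 was its lowest post-molt library. In the pre-molt group, the libraries ordered by PPP1R3G (5572, 5842, 6762, C497) had PPP1R3C at its lowest in 5572 and at its highest in C497. Among post-molt seals, 5572 had the lowest PPP1R3C and the highest PPP1R3G. The orders were not opposite throughout. Post-molt 4448 had the highest PPP1R3C and yet more PPP1R3G than 9678 and X410, and pre-molt 5842 had more of both genes than 6762.

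Profiles over the 8 libraries were compared by the root-mean-square difference of log2 CPM, each gene centred on its own mean, which is given with no test. PPP1R3A and PPP1R3D had the most similar profiles of the family (0.35), followed by PPP1R3A and PPP1R3B (0.45). PPP1R3C and PPP1R3G were the farthest apart (3.03), which follows from the choice of the family for their opposite moves.

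The makeup of the family's reads was different in each group. Gene lengths were not used, so a share of reads is compared between libraries for 1 gene at a time and never between genes. PPP1R3C took 60.2, 40.8, 44.8 and 49.9% of the family's reads in post-molt seals 4448, 5572, 9678 and X410, against 4.69, 13.5, 9.07 and 16.2% in pre-molt seals 5572, 5842, 6762 and C497. PPP1R3G took 1.67, 2.58, 0.486 and 1.15% in the post-molt libraries, against 19.2, 19.4, 11.1 and 8.34% in the pre-molt libraries, in the same order of seals. The shares of both genes thus did not overlap between groups. The read ratio of PPP1R3C to PPP1R3G was 15.8 to 92.2 in post-molt libraries and 0.244 to 1.94 in pre-molt libraries. The family was chosen for the opposite moves of these genes, so that these differences follow from the choice. A larger share of PPP1R3C also leaves less for the other members.

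The summed level of the 7 genes was 331, 250, 352 and 308 CPM in post-molt seals 4448, 5572, 9678 and X410, against 135, 129, 167 and 168 CPM in pre-molt seals 5572, 5842, 6762 and C497. Leaving PPP1R3C out of the sum brought the groups into overlap. The other 6 genes summed to 132, 148, 194 and 154 CPM in the post-molt libraries and 129, 111, 152 and 141 CPM in the pre-molt libraries. The read ratio of PPP1R3D to PPP1R3A also overlapped, at 0.673 to 1.07 post-molt and 0.538 to 1.20 pre-molt.

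**Figure D3:**
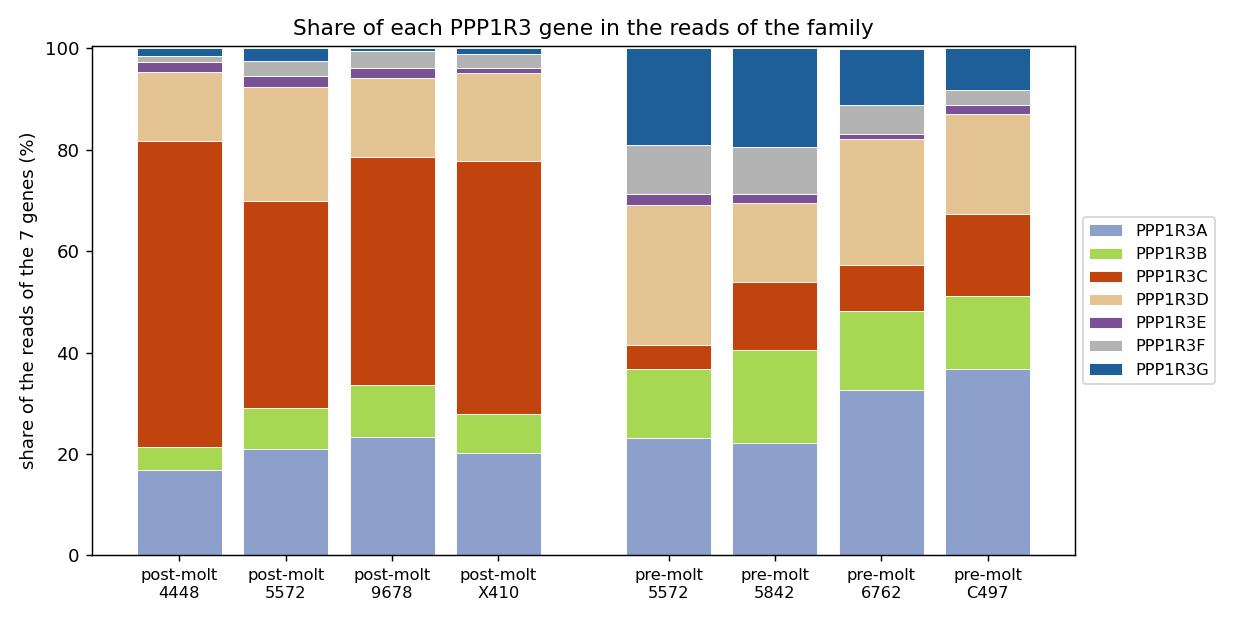
Percent of the reads of the 7 PPP1R3 genes that fell on each gene, in 4 post-molt libraries (left) and 4 pre-molt libraries (right), with no correction for gene length. The PPP1R3C segment spans 40.8 to 60.2% in post-molt libraries and 4.69 to 16.2% in pre-molt libraries, and the PPP1R3G segment 0.486 to 2.58% in post-molt and 8.34 to 19.4% in pre-molt libraries.

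Where another gene shares the place of a member, its reads can be miscounted, since it is not stated whether counting used strand. Only the starts and ends of genes were compared here, so whether their exons overlap was not tested. In the RefSeq annotation of a northern elephant seal assembly (mMirAng1.0.hap1), matched by symbol for all 7 members, PPP1R3G lies within LYRM4, a gene for iron-sulfur cluster assembly. LYRM4 itself averaged 2.56 ± 0.769 CPM post-molt and 4.07 ± 2.62 CPM pre-molt (SD, n = 4 each). PPP1R3F overlaps FOXP3, a gene of regulatory T cells, which averaged 1.25 ± 0.625 CPM post-molt and 1.86 ± 0.992 CPM pre-molt. PPP1R3A overlaps a long non-coding RNA gene, and no overlap was found for PPP1R3B, PPP1R3C, PPP1R3D or PPP1R3E. The counts themselves were made on the genome of another species, the Hawaiian monk seal, whose gene models may differ.

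The rest of the glycogen system was tested to see whether it moved with these subunits. None of its 43 tested genes (of 44 listed) was called in either direction by edgeR with Benjamini-Hochberg adjustment, where 0.217% of all genes were called higher and 0.133% lower. Before adjustment, 6 of 43 had p under 0.05 and a positive fold change, where 5.20% of all genes did, and 2 of 43 a negative one, where 6.22% did. DESeq2 called 2 of 41 higher, GYG1 and AKT2, where it called 3.07% of all genes higher, and 0 lower, where it called 2.92%. The log2 fold changes ran from -0.63 to 0.64 with a median of 0.05. Groups did not overlap for 5 of 43 (GYS1, GYG1, PHKA1, AKT2 and PRKACA), where 9.16% of all genes tested had no overlap.

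Among enzymes of synthesis, 0 of 7 tested genes passed, and the median log2 fold change was -0.18. GYS1 encodes muscle glycogen synthase, the enzyme that PP1 activates at the glycogen particle. GYS1 had 839, 765, 737 and 727 CPM in post-molt seals 4448, 5572, 9678 and X410, against 701, 523, 438 and 480 CPM in pre-molt seals 5572, 5842, 6762 and C497. The groups did not overlap, but the log2 fold change of 0.52 ± 0.20 (SE) gave an adjusted p of 0.313 in edgeR. GYG1, the glycogenin that primes new glycogen, averaged 215 ± 19.4 CPM post-molt and 138 ± 30.3 CPM pre-molt (SD, n = 4 each), with a log2 fold change of 0.64 ± 0.20 (SE) and an edgeR adjusted p of 0.184. PGM1, which interconverts glucose phosphates, averaged 883 ± 148 CPM post-molt and 1370 ± 299 CPM pre-molt, with a log2 fold change of -0.63 ± 0.22 and an edgeR adjusted p of 0.263. GYS2, the liver glycogen synthase, had no count in any library.

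Genes of glycogen breakdown gave 0 calls of 11, with a median log2 fold change of -0.04. PYGM, muscle glycogen phosphorylase, averaged 6620 ± 1070 CPM post-molt and 6830 ± 1770 CPM pre-molt (SD, n = 4 each), a log2 fold change of -0.04 ± 0.23 (SE) with an edgeR adjusted p of 0.972. PHKA1, the muscle alpha subunit of phosphorylase kinase, averaged 176 ± 10.7 CPM post-molt and 247 ± 48.9 CPM pre-molt, and its groups did not overlap. Its log2 fold change was -0.49 ± 0.19 with an edgeR adjusted p of 0.312. GAA, the lysosomal alpha-glucosidase, had a log2 fold change of 0.52 ± 0.22 and an edgeR adjusted p of 0.368.

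PP1 catalytic subunits, the partners of every PPP1R3 protein, gave 0 calls of 3. PPP1CA averaged 72.0 ± 5.90 CPM post-molt and 89.9 ± 20.3 CPM pre-molt (SD, n = 4 each; log2 fold change -0.32 ± 0.20, edgeR adjusted p = 0.615). PPP1CB averaged 138 ± 32.9 CPM post-molt and 138 ± 43.9 CPM pre-molt (log2 fold change -0.01 ± 0.24, edgeR adjusted p = 0.998). PPP1CC averaged 44.5 ± 7.84 CPM post-molt and 36.0 ± 5.73 CPM pre-molt (log2 fold change 0.30 ± 0.20, edgeR adjusted p = 0.655). All 3 overlapped between groups.

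Laforin (EPM2A) is a glycogen phosphatase and malin (NHLRC1) a ubiquitin ligase, a pair that in mammalian cells marks PTG for degradation. EPM2A averaged 22.9 ± 5.41 CPM post-molt and 16.3 ± 3.70 CPM pre-molt (SD, n = 4 each), with an edgeR adjusted p of 0.546. NHLRC1 averaged 29.4 ± 7.13 CPM post-molt and 28.5 ± 6.83 CPM pre-molt, with an edgeR adjusted p of 0.972. Neither passed the test.

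Kinases that act on glycogen enzymes, 20 genes of the GSK3, AMPK, PKA, casein kinase and AKT groups among them, gave 0 calls and a median log2 fold change of 0.06. AKT2, a kinase of the insulin pathway, averaged 327 ± 30 CPM post-molt and 211 ± 61.4 CPM pre-molt (SD, n = 4 each), a log2 fold change of 0.63 ± 0.22 (SE) with an edgeR adjusted p of 0.262. PRKACA, a PKA catalytic subunit, averaged 122 ± 9.47 CPM post-molt and 89.8 ± 15.5 CPM pre-molt, a log2 fold change of 0.44 ± 0.18 with an edgeR adjusted p of 0.368. Groups did not overlap for either gene.

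Other regulators of PP1, which inhibit it or direct it to targets other than glycogen, gave 1 call among 34 tested genes (of 37 listed). It was a lower level, where 0.133% of all genes were called lower, and the median log2 fold change of the 34 genes was 0.10. That gene was PPP1R1A, which encodes inhibitor-1, a protein that inhibits PP1 once PKA has phosphorylated it. PPP1R1A had 132, 178, 139 and 163 CPM in post-molt seals 4448, 5572, 9678 and X410, against 543, 537, 375 and 234 CPM in pre-molt seals 5572, 5842, 6762 and C497. All 4 post-molt libraries were below all 4 pre-molt libraries, and pre-molt C497 was the nearest. Mean PPP1R1A was 153 ± 21.1 CPM post-molt and 422 ± 148 CPM pre-molt (SD, n = 4 each), and it fell by 1.46 ± 0.26 on the log2 scale (SE, edgeR adjusted p = 0.0419). The call of PPP1R1A was lost when any 1 library other than pre-molt C497 was left out, at adjusted p of 0.0553 to 0.123.

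PPP1R2, which encodes inhibitor-2, lay on the other side of 0. It had 98.3, 84.3, 108 and 115 CPM in post-molt seals 4448, 5572, 9678 and X410, against 49.9, 45.4, 49.6 and 71.0 CPM in pre-molt seals 5572, 5842, 6762 and C497. The groups did not overlap. The log2 fold change of 0.91 ± 0.20 (SE) had an edgeR adjusted p of 0.0679, and passed in DESeq2 (adjusted p = 6.39e-04).

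**Figure D4:**
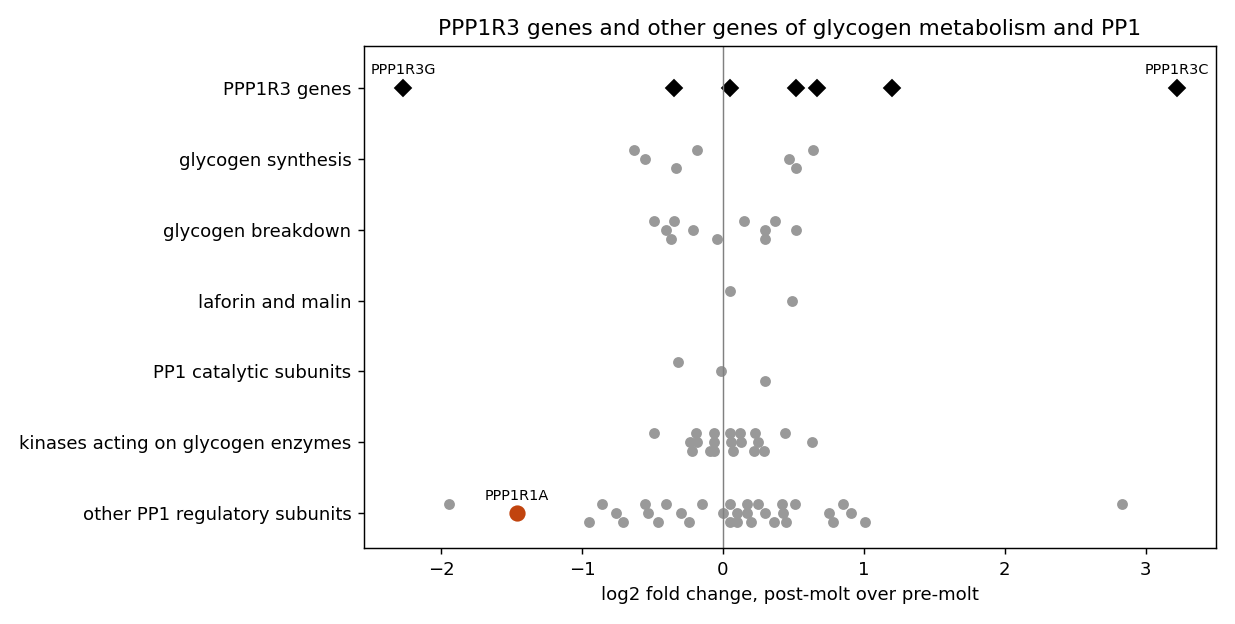
Log2 fold change, post-molt over pre-molt, of each PPP1R3 gene (diamonds) and each tested gene of 6 other lists of the glycogen and PP1 systems (circles), 1 list a line. The 43 genes of the first 5 lists lie between -0.63 and 0.64, and PPP1R1A (orange, -1.46) is the only circle past the edgeR test; the circles at 2.83 and -1.94 are PPP1R14D and PPP1R32, which averaged no more than 2.12 CPM in either group.

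The genes whose profiles over the 8 libraries were closest to PPP1R3C, by the same root-mean-square difference, were SNAI3 (0.73), ZNF503 (0.75), TMTC1 (0.76), PER1 (0.83) and PPTC7 (0.86), where the median over all genes was 1.91. PPTC7, a phosphatase of mitochondria, had 180, 162, 226 and 155 CPM in post-molt seals 4448, 5572, 9678 and X410, against 46.1, 27.0, 30.2 and 55.4 CPM in pre-molt seals 5572, 5842, 6762 and C497. PER1, a core gene of the circadian clock, had 116, 29.6, 55.0 and 35.7 CPM post-molt against 6.92, 11.2, 8.22 and 4.55 CPM pre-molt, in the same order of seals. These genes were selected by their likeness to PPP1R3C, so that a shared difference between the groups follows from the choice.

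Closest to PPP1R3G were TSKU (0.49), IGFALS (0.53), NCKAP5L (0.55), HPDL (0.59) and FOXO6 (0.59), where the median over all genes was 1.44. FOXO6, a forkhead transcription factor, had 14.3, 14.0, 7.45 and 18.7 CPM in post-molt seals 4448, 5572, 9678 and X410, against 46.3, 40.9, 31.5 and 45.9 CPM in pre-molt seals 5572, 5842, 6762 and C497. TSKU, which encodes a secreted protein, had 6.52, 5.50, 2.68 and 5.91 CPM post-molt against 18.5, 15.1, 16.3 and 11.1 CPM pre-molt, in the same order of seals. The likeness to PPP1R3G, a low value in post-molt 9678 included, again follows from the choice. These lists depended on single libraries: 2 to 5 of the 5 genes nearest to PPP1R3C were kept with 1 library left out, fewest without post-molt 9678, and 0 to 3 of those nearest to PPP1R3G, with 0 kept without post-molt 9678.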

How the data were processed

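Read counts per gene were deposited as 1 table. The authors used bcl2fastq 2.20 to make reads, STAR to align them to the genome of the Hawaiian monk seal and to count them per gene, and DESeq2 1.18.1 (R 3.4.3) to test genes. The strand setting is not given in the sources used here. Of 24349 entries, 11 without a gene name (0.0173 to 0.0259% of counts) were left out. No pair of libraries was a copy (28 pairs, lowest chi-square per degree of freedom 99.7).

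Genes were kept with filterByExpr (minimum count 10, minimum total 15), scaled with TMM factors and compared in edgeR 4.0.16 (R 4.3.3) by its two-sided quasi-likelihood test, with Benjamini-Hochberg adjustment over 14312 genes and a threshold of 0.05. CPM are counts per 1000000 counts of the TMM-scaled library size. The SE of a fold change was derived from its F statistic. P-values rest on biopsies of different seals, except seal 5572, for which no term was fitted. Profiles used log2 CPM with a prior count of 2. The procedure was tested on simulated data.

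The members and gene lists were chosen with earlier results of these data known. Named were all members, every list gene past the test, the 2 genes with the smallest p in each list, GYS1, PYGM, PPP1CA, PPP1CB, PPP1CC, EPM2A and NHLRC1, and the 5 genes nearest to PPP1R3C and to PPP1R3G. Other genes named, among them markers, overlapping genes, PPP1R14D and PPP1R32, were singled out after their values were seen or for their place. Alternatives were RLE and upper-quartile factors, the 20 most abundant genes left out of library sizes, no filter, a prior count of 0.5, DESeq2 1.42.0, limma-voom (limma 3.58.1), libraries left out, and seal 5572 alone. Leaving out pre-molt 5842 and C497 was added after seeing the data.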

Additional observations from a re-analysis of the deposited data

Results flagged for a closer look

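For the 7 PPP1R3 genes and the 15 other named genes of the glycogen and PP1 lists, 44 groups of 4 libraries were examined for a library far from the other 3, by the gap to the nearest library over the range of the group (critical value 0.829). Chance gives about 1 such group in 20, and 2 were found. PYGM, muscle glycogen phosphorylase, had 5030 CPM in post-molt X410, against 7000 to 7260 CPM in the other post-molt libraries (0.881 of the range). PGM1 had 919 CPM in pre-molt C497, against 1470 to 1540 CPM in the other pre-molt libraries (0.888 of the range). No group of a PPP1R3 gene passed the critical value.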

How the results depend on the processing

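No paired analysis was possible because only seal 5572 had a library in both groups. Within that seal the log2 difference of PPP1R3C was 4.01, against 3.22 over all libraries. Over 18 alternatives for each, PPP1R3A, PPP1R3C, PPP1R3D and PPP1R3E kept a positive and PPP1R3F and PPP1R3G a negative fold change, and PPP1R3B kept its sign in 14. With 1 library left out, PPP1R3F ran from -0.64 to -0.11 and PPP1R3E from 1.05 to 1.39. DESeq2 called 2 of 41 glycogen genes (both higher), against 0 of 43 in edgeR. Of the other PP1 regulatory genes, 1 of 34 was called in edgeR, 4 of 32 by DESeq2 (3 higher and 1 lower) and 3 of 34 without the filter on low counts (2 higher and 1 lower). Over all genes, DESeq2 called 3.07% higher and 2.92% lower, and edgeR without the filter called 128 higher and 97 lower of 19401. Among the other PP1 regulatory genes, edgeR called 0 without both libraries of seal 5572 and 0 without pre-molt 5842 and post-molt 9678. It called 0 of them without pre-molt 5842 and C497, and 0 to 1 with 1 library left out. The causes were not tested, and the fits with libraries left out also had fewer libraries. With 4 libraries a group, an adjusted p above 0.05 does not show that a level did not differ. PPP1R3E and PPP1R3G rest on the fewest counts, as low as 67 and 53 in a library.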

Other observations

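Groups did not overlap for 4 of the 34 other PP1 regulators tested, where 9.16% of all genes tested had no overlap. Beside PPP1R1A and PPP1R2 these were PPP1R10 and PPP1R15A, which were chosen after their values were seen. PPP1R10, a nuclear targeting subunit, averaged 40.9 CPM post-molt and 20.3 CPM pre-molt, a log2 fold change of 1.01 ± 0.24 (SE, edgeR adjusted p = 0.0803). PPP1R15A, which directs PP1 to the translation factor eIF2-alpha, averaged 219 CPM post-molt and 131 CPM pre-molt, a log2 fold change of 0.75 ± 0.22 (edgeR adjusted p = 0.161).

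In the RefSeq annotation, PPP1R3C lies between HECTD2 and TNKS2. HECTD2 averaged 6.51 ± 3.76 CPM post-molt and 3.59 ± 2.55 CPM pre-molt, and TNKS2 averaged 113 ± 10.5 CPM post-molt and 96.7 ± 14.8 CPM pre-molt (SD, n = 4 each). Both overlapped between groups, as PPP1R3C did not. Their log2 fold changes were also positive, at 0.86 ± 0.55 for HECTD2 and 0.22 ± 0.18 for TNKS2 (SE). FAM217B, next to PPP1R3D, averaged 21.0 ± 3.10 CPM post-molt and 12.6 ± 3.80 CPM pre-molt. Its log2 fold change was 0.73 ± 0.28 (SE, edgeR adjusted p = 0.301), beside 0.67 ± 0.23 for PPP1R3D.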
